A study of Mus musculus with 22 samples.

Results

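The miRNAs mmu-miR-128-3p, mmu-miR-153-3p and mmu-miR-383-5p, written here without the species prefix, are 3 of the 172 microRNAs (miRNAs) listed in small RNA libraries of the mouse arcuate nucleus (ARC) and paraventricular nucleus (PVH) of the hypothalamus. They were taken by name, as miRNAs reported to be enriched in neurons, and their levels were followed across both nuclei and both maternal groups. The tissue was cut by laser capture from chow-fed male C57BL/6J offspring, 8 weeks old, of control dams (Off-C) or of dams made obese on a high-fat diet with sweetened condensed milk (Off-Ob). Each nucleus had 6 Off-C and 5 Off-Ob libraries, 22 in all from 12 mice, of which 10 mice (6 Off-C and 4 Off-Ob) gave both nuclei. All mice were wild type, and the captured tissue holds neurons, glia and vessels together, so fewer neurons and less miRNA per neuron cannot be told apart.

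A miRNA silences messenger RNAs through its seed, the short stretch near its 5′ end that pairs with the target. miR-128 is abundant in the adult brain, and mice that lack it become hyperactive and develop seizures. miR-153 is likewise found mainly in the brain, where it targets components of the synaptic vesicle machinery. miR-383 is less well described in the brain, and its best known roles in the mouse are in the gonads.

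The mature sequences are shown because the seed sets which messages a miRNA can bind, and because the 2 genes of miR-128 give an identical product. The RefSeq table for GRCm38.p6 matched 2 of the 3 members and 148 of the 172 listed miRNAs. Capitals mark the seed, bases 2 to 8 from the 5′ end.
miR-128-3p: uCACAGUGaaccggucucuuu
miR-153-3p: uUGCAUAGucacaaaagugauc
These seeds differ, and no other listed miRNA with a RefSeq sequence carried either of them at bases 2 to 8. miR-27a-3p held the miR-128-3p seed shifted by 1 base, at bases 3 to 9, which are in capitals here.
miR-27a-3p: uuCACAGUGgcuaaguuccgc

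The hairpin precursors are shown with the measured arm in capitals, because the reads of miR-128-3p cannot be divided between its precursors. Mir128-1 lies at chr1:128202361-128202430 on the plus strand and Mir128-2 at chr9:112118636-112118711 on the minus strand of GRCm38. Mir153 lies at chr12:117250817-117250885 on the plus strand.
Mir128-1: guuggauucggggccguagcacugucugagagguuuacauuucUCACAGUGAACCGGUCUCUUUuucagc
Mir128-2: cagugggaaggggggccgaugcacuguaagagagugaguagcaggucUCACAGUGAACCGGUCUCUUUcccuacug
Mir153: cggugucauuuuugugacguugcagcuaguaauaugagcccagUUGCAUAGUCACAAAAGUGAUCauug
In the GENCODE annotation all of these hairpins sat in an intron of a protein-coding gene on the same strand. Mir128-1 lay in R3hdm1, which encodes an RNA-binding protein, and Mir128-2 in Arpp21, which encodes a phosphoprotein of neurons. Mir153 lay in Ptprn2, which encodes a membrane protein of dense-core secretory vesicles, and an antisense transcript, Gm5441, spans it on the other strand. Mir383 lay at chr8:38252133-38252202 on the minus strand, in an intron of Sgcz, the gene of zeta-sarcoglycan. The opposite arms of the hairpins were not among the 172 listed miRNAs.

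The libraries held 22495 to 91790 reads over the listed miRNAs, recovered as whole reads from the deposited log2(CPM + 1) values, where CPM are read counts divided by the scaled size of the library. Levels are given on that log2 scale unless stated. The ARC libraries of the Off-Ob mice F42A and F6A stood apart from the other libraries. The let-7 family, 10 listed miRNAs in all, took 79.1% of the reads of F42A and 64.2% of those of F6A, against 33.8% to 46.8% in the Off-C libraries of the ARC. F42A also had 20 miRNAs at 0 reads, where no Off-C library of the ARC had more than 1, and its scale factor was 0.470 against 1.03 to 1.21. Results are therefore given with and without these libraries. ARC libraries were sequenced in 1 pool and PVH libraries in another, so nucleus and pool cannot be told apart.

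miR-128-3p and miR-153-3p were abundant and miR-383-5p was scarce. Outside F42A and F6A, miR-128-3p held 110 to 329 reads per ARC library and ranked 27 to 35 of the 172 miRNAs. In the PVH it held 170 to 530 reads and ranked 19 to 30. miR-153-3p took a similar place, with 166 to 805 reads and ranks of 18 to 31 in those 9 ARC libraries, and 103 to 684 reads and ranks of 18 to 39 in the PVH. miR-383-5p held 15 to 37 reads and ranked 73 to 119 in the same ARC libraries, and it held 9 to 35 reads and ranked 82 to 129 in the PVH. Counting error alone would give a miRNA with so few reads a standard deviation of about 0.30 on the log2 scale in Off-C ARC libraries and 0.31 in Off-C PVH libraries. The measured values were 0.53 and 0.27 (SD, n = 6 each), so the spread of miR-383-5p in the Off-C PVH was no larger than counting error. For miR-128-3p the measured SD of 0.26 in the Off-C ARC was larger than the 0.12 from counting, and it ranked 141 of 172 from the most variable. miR-153-3p varied more, with an SD of 0.47 in the Off-C ARC and 0.61 in the Off-C PVH, against medians of 0.45 and 0.47 over all miRNAs.

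**Figure D1:**
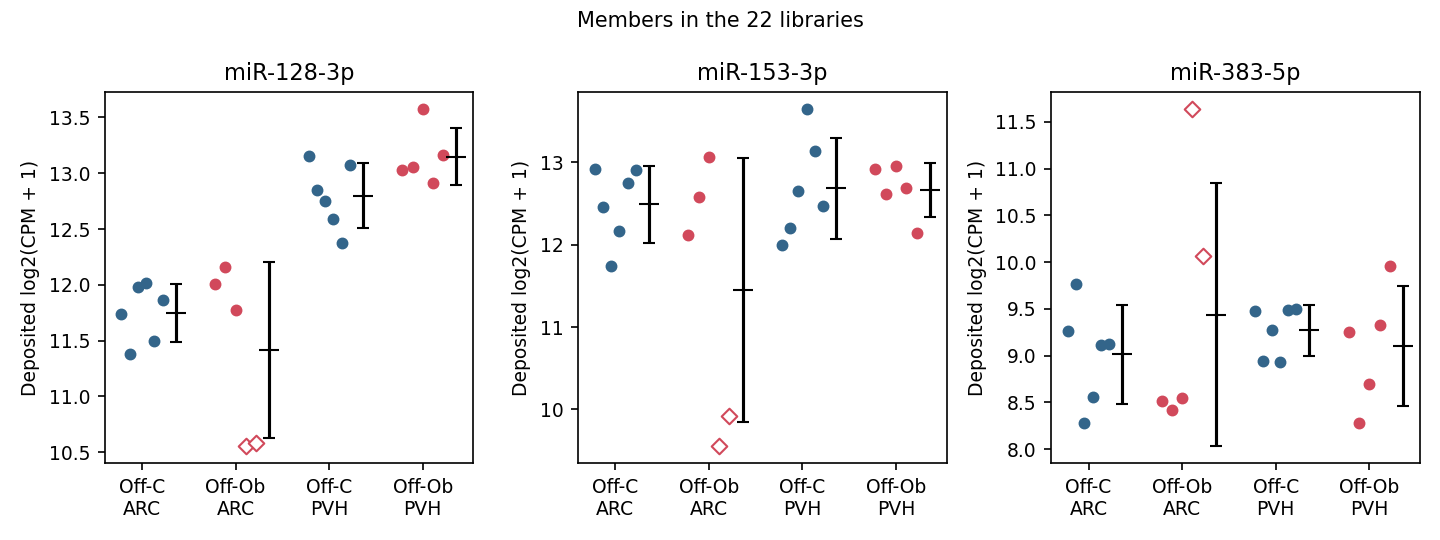
Deposited log2(CPM + 1) of each member (vertical axes) in every library of the 4 groups (horizontal axes). Points are libraries, open diamonds are the ARC libraries of F42A and F6A, and bars are the mean ± SD (n = 6 Off-C, n = 5 Off-Ob). F42A and F6A are the lowest ARC libraries for miR-128-3p and miR-153-3p and the highest for miR-383-5p.

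None of the 3 differed between Off-Ob and Off-C in the ARC past the adjusted threshold, and the sign of each difference depended on F42A and F6A. miR-128-3p was at 11.38, 11.80 and 12.02 in the Off-C ARC (lowest, median and highest of 6). The Off-Ob libraries were at 12.01 for F12A, 12.16 for F13A, 11.77 for F41A, 10.55 for F42A and 10.58 for F6A. F42A and F6A lay below every Off-C library and F13A lay above all of them. The group means were 11.75 ± 0.26 (SD, n = 6) in Off-C and 11.41 ± 0.79 (SD, n = 5) in Off-Ob. The log2 difference was -0.33 (SE 0.32, limma adjusted p = 0.61), and it was 0.23 (SE 0.19, adjusted p = 0.99) without F42A and F6A.

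miR-153-3p showed the same arrangement with a wider gap. It was at 11.74, 12.61 and 12.91 in the Off-C ARC (lowest, median and highest of 6). In Off-Ob it was at 12.12 for F12A, 12.58 for F13A, 13.07 for F41A, 9.55 for F42A and 9.93 for F6A. The highest and the lowest 2 values of the ARC were thus all Off-Ob libraries. F42A held only 8 reads of miR-153-3p, 0.0353% of its reads (95% Wilson interval 0.0179% to 0.0696%, counting error only), against 0.415% to 0.860% in Off-C. The log2 difference was -1.04 (SE 0.61, limma adjusted p = 0.49) with all libraries and 0.10 (SE 0.27, adjusted p = 0.99) without F42A and F6A.

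miR-383-5p ran the other way in the same libraries. It was at 8.28, 9.12 and 9.77 in the Off-C ARC (lowest, median and highest of 6). The Off-Ob values were 8.52 for F12A, 8.42 for F13A, 8.55 for F41A, 11.64 for F42A and 10.06 for F6A. F42A and F6A were above every Off-C library and the other 3 Off-Ob libraries were below the Off-C mean. F42A held 34 reads, more than it held of miR-128-3p (16 reads) or miR-153-3p (8 reads), and this was 0.150% of its reads (95% Wilson interval 0.107% to 0.209%). The log2 difference was 0.42 (SE 0.56, limma adjusted p = 0.70) with all libraries and -0.52 (SE 0.31, adjusted p = 0.99) without both. It was already -0.13 without F42A alone. The paper lists miR-383-5p among the miRNAs raised in the Off-Ob ARC, by an edgeR likelihood ratio test with a p-value cutoff. Its test and threshold differ from those used here.

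In the PVH, miR-128-3p was the member nearest to a maternal difference. It was at 12.38, 12.80 and 13.16 in Off-C (lowest, median and highest of 6), and in Off-Ob it was at 13.02 for F12A, 13.06 for F13A, 13.58 for F14A, 12.91 for F41A and 13.17 for F42A. All 5 Off-Ob libraries were above the Off-C mean and 2 were above every Off-C library. The difference was 0.35 (SE 0.18, 95% interval -0.04 to 0.73, unadjusted p = 0.073, limma adjusted p = 0.98), the second smallest p of the 172 miRNAs. miR-153-3p was at 12.00, 12.56 and 13.65 in Off-C. Its 5 Off-Ob values (12.92 for F12A, 12.61 for F13A, 12.95 for F14A, 12.69 for F41A and 12.14 for F42A) all fell inside that range, with a difference of -0.02 (SE 0.27, limma adjusted p = 0.98). miR-383-5p was at 8.93, 9.38 and 9.50 in Off-C. Its Off-Ob values were 9.25 for F12A, 8.28 for F13A, 8.70 for F14A, 9.33 for F41A and 9.95 for F42A, on both sides of the Off-C range, with a difference of -0.17 (SE 0.28, adjusted p = 0.98).

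These members were read against a background without calls. The adjusted threshold of 0.05 was passed by 0% of the 172 miRNAs in each nucleus. At an unadjusted p under 0.05 limma gave 10 ARC miRNAs and 0 PVH miRNAs, and limma-voom on the recovered reads gave 8 and 0, with 0 past the adjusted threshold in either nucleus. The difference of the maternal effect between nuclei, ARC minus PVH, was -0.70 (SE 0.39) for miR-128-3p, -1.05 (SE 0.73) for miR-153-3p and 0.61 (SE 0.69) for miR-383-5p. The limma adjusted p-values were 0.67, 0.67 and 0.74, and 0% of the 172 miRNAs passed (5 at an unadjusted p under 0.05). Without the ARC libraries of F42A and F6A the differences were -0.13, 0.13 and -0.37 in the same order.

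**Figure D2:**
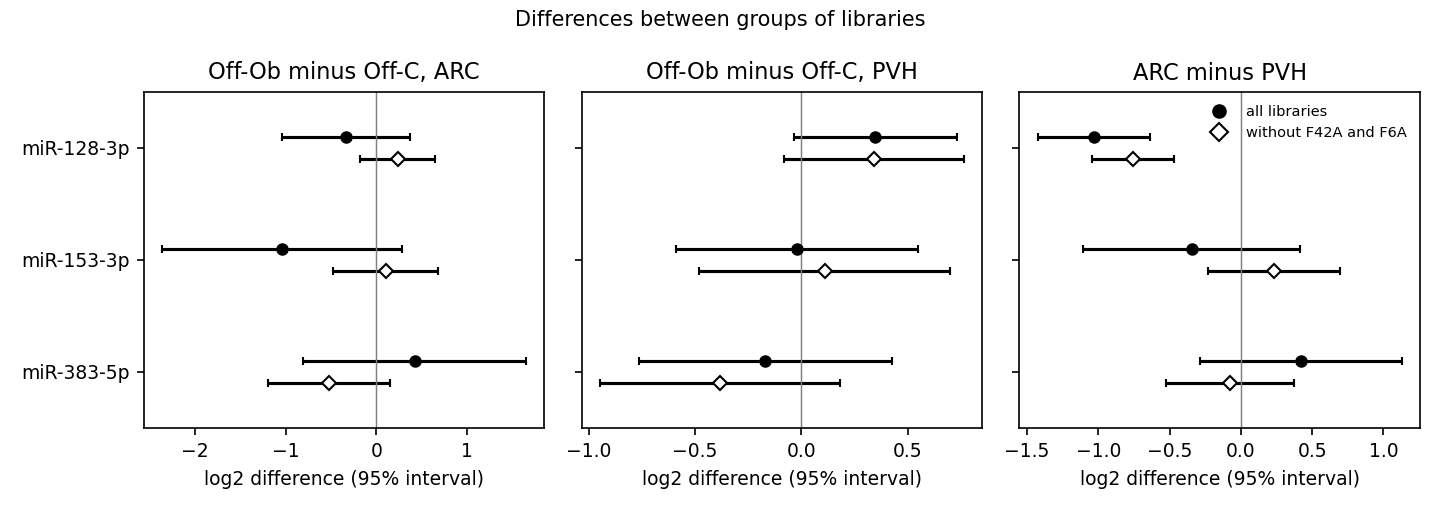
log2 difference of each member (rows) with its 95% interval from limma (horizontal axes, scaled separately), for Off-Ob minus Off-C in the ARC, Off-Ob minus Off-C in the PVH and ARC minus PVH. Filled circles use all libraries and open diamonds leave out F42A and F6A. In the first panel the estimates of -0.33, -1.04 and 0.42 become 0.23, 0.10 and -0.52, and in the last panel miR-128-3p stays below 0 in both.

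Of the 3 members only miR-128-3p passed the threshold between the nuclei, and it was lower in the ARC. For this comparison the recovered reads of all 22 libraries were scaled together. Among Off-C mice miR-128-3p was at 11.64, 11.97 and 12.23 in the ARC and at 12.29, 12.62 and 12.92 in the PVH (lowest, median and highest of 6). Every Off-C library of the ARC was below every one of the PVH, which held for 4.07% of the 172 miRNAs. Among Off-Ob mice the ARC values were 12.16 for F12A, 12.34 for F13A, 11.91 for F41A, 10.71 for F42A and 10.83 for F6A. The PVH values were 12.83 for F12A, 12.85 for F13A, 13.47 for F14A, 12.71 for F41A and 12.80 for F42A. miR-128-3p was lower in the ARC in 10 of 10 mice with both nuclei, with differences from -2.09 (F42A) to -0.24 (RC5A), and 4.65% of the miRNAs were lower in every mouse. The exact sign-flip test over these mice gave p = 0.00195, two-sided, the smallest it can give, for a mean of -0.83 ± 0.52 (SD, n = 10 mice).

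In the limma fit over the 22 libraries the ARC minus PVH difference of miR-128-3p was -1.03 (SE 0.19, adjusted p = 0.00077). Among all 172 miRNAs, 11% (19) were called lower in the ARC and 8.72% (15) higher. The split depended on the scaling, with 34 lower and 3 higher on plain CPM, 56 and 3 on the deposited values and 25 and 6 on CPM outside let-7, and the median of all miRNAs moved to -0.38, -0.37 and -0.11. miR-128-3p was at -1.43, -1.40 and -1.14 under these scalings, below that median each time. Without the ARC libraries of F42A and F6A the difference was -0.76 (SE 0.14, adjusted p = 0.00041). Within the 6 Off-C mice it was -0.70, and the call depended on the fit, with an adjusted p of 0.14 as a contrast within the limma fit of all libraries and 0.024 when the 12 Off-C libraries were fitted alone (SE 0.18). The latter was chosen after seeing the data. The Off-Ob contrast was -1.37 (SE 0.28, adjusted p = 0.0042), and it was -0.82 (SE 0.21, adjusted p = 0.032) without the ARC libraries of F42A and F6A. The difference between the maternal groups, -0.33 between their mean paired differences, gave p = 0.41 by exact permutation over 6 Off-C and 4 Off-Ob mice. It rested on F42A, and without this mouse it was 0.032 (exact permutation p = 0.90).

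miR-153-3p and miR-383-5p did not show this difference. On the joint scale miR-153-3p was at 11.97 to 13.12 in the Off-C ARC and at 11.75 to 13.53 in the Off-C PVH, so the nuclei overlapped widely. It was lower in the ARC in 5 mice and higher in 5, with a limma difference of -0.35 (SE 0.37, adjusted p = 0.50) that became 0.24 (SE 0.22, adjusted p = 0.47) without F42A and F6A. miR-383-5p was at 8.50 to 10.03 in the Off-C ARC and at 8.81 to 9.41 in the Off-C PVH. It was lower in the ARC in 6 mice and higher in 4, with a difference of 0.42 (SE 0.34, adjusted p = 0.35) that became -0.08 (SE 0.22, adjusted p = 0.83) without those libraries.

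**Figure D3:**
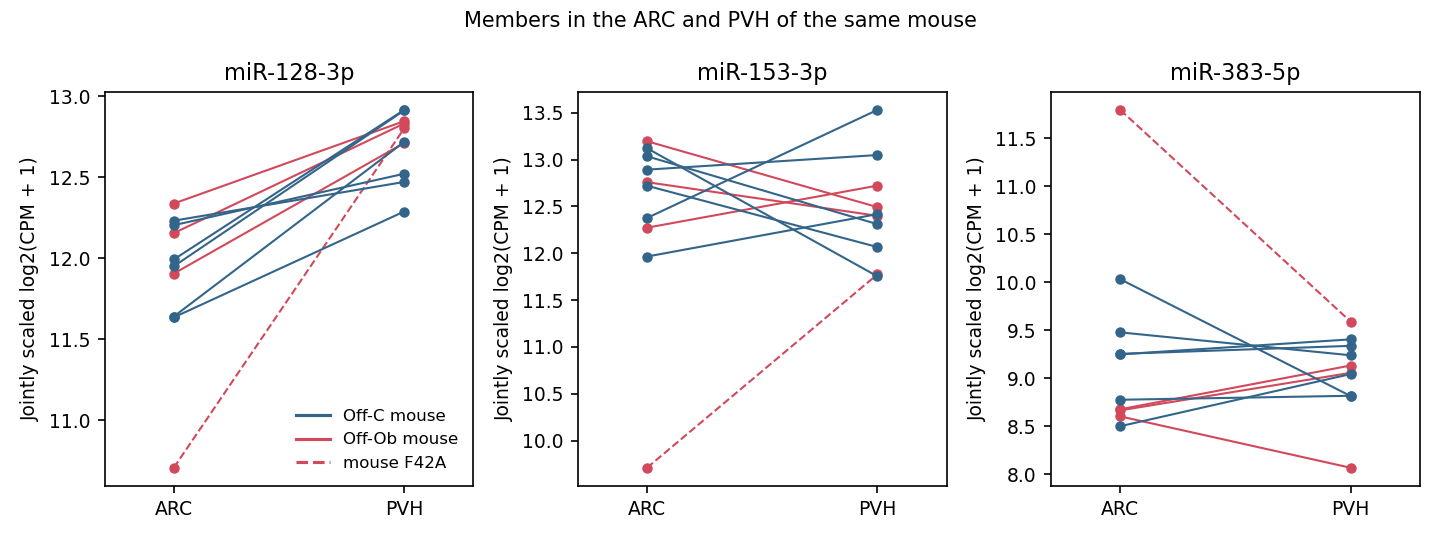
Jointly scaled log2(CPM + 1) of each member (vertical axes) in the ARC and PVH (horizontal axes) of the 10 mice with both nuclei. Each line is 1 mouse, blue for Off-C and red for Off-Ob, and the dashed line is F42A. All 10 lines rise from the ARC to the PVH for miR-128-3p, while they cross for miR-153-3p and miR-383-5p.

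The other neuron-enriched miRNAs of a chosen list stood lower in the ARC too, on the same joint scale. Of 16 names 12 were measured, and all 12 had a negative ARC minus PVH difference, of which 5 passed the adjusted threshold. Over all 172 miRNAs 84 had a negative difference and 19 (11%) were called lower. The median of the list was -0.80 against 0.00 over all miRNAs. Among the other marker lists, described below, the medians were -0.87 for oligodendrocytes, -1.01 for endothelium and -0.19 for astrocytes. The neuroendocrine, ependymal and leukocyte lists were above 0, at 1.07, 1.13 and 0.44. miR-218-5p, which is expressed in motor and other projection neurons, was lower in the ARC by 1.51 on the log2 scale (adjusted p = 0.00077), and the neural miRNA miR-9-5p had a difference of -1.44 (adjusted p = 0.0058). miR-9-3p, miR-135a-5p and miR-410-3p also fell past the threshold in limma. miR-124-3p, the most widely used marker of neurons among miRNAs, was at -0.72 (SE 0.39, adjusted p = 0.17). Without the ARC libraries of F42A and F6A all 12 were still negative, with a median of -0.56, but miR-212-3p (-0.01), miR-132-3p (-0.07) and miR-129-2-3p (-0.10) were near 0. The calls of miR-135a-5p and miR-410-3p were lost in that fit (adjusted p = 0.079 and 0.12), that of miR-434-3p was gained (adjusted p = 0.032), and 4 passed in all. In the separate fit of the 12 Off-C libraries miR-212-3p (0.27) and miR-132-3p (0.03) were positive.

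Markers on the other lists also differed between the nuclei, and their part in the result for miR-128-3p was not tested. Neuroendocrine cells may be neurons, so these lists are not all free of neurons. The endothelial list (2 of 4 names measured, miR-126-3p and miR-126-5p) summed to 0.641% to 2.27% of jointly scaled counts in the ARC and 1.03% to 2.90% in the PVH, and both members were called lower in the ARC. Without the ARC libraries of F42A and F6A only miR-126-3p passed in limma (adjusted p = 0.047, against 0.051 for miR-126-5p). The pituitary and neuroendocrine list (2 of 4, miR-7a-5p and miR-7b-5p) summed to 15.9% to 25.1% in the ARC and 8.08% to 18.2% in the PVH, and both were called higher in the ARC. miR-211-5p, the only measured name of 5 for ependyma and choroid plexus, was called higher in the ARC, at 0.0522% to 0.298% against 0.0302% to 0.127%. No member was called of the astrocyte list (4 of 5 measured, 0.637% to 1.23% in the ARC and 0.837% to 1.23% in the PVH), the oligodendrocyte list (2 of 5, 0.0104% to 0.0452% and 0.0148% to 0.0556%) or the leukocyte list (1 of 5, 0.0731% to 0.196% and 0.0743% to 0.151%). Without those libraries miR-146a-5p, the measured leukocyte name, was called higher in the ARC (0.57, limma adjusted p = 0.015, against 0.44 and 0.084 with them), and the calls of the other lists were as before. None of the 5 red blood cell names was listed, and no measured marker was at 0 in a whole group.

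Ratios of 2 members within a library are free of the scaling of that library. In the Off-C ARC miR-128-3p held fewer reads than miR-153-3p in 5 of 6 libraries, with a log2 ratio of -0.74 ± 0.63 (SD, n = 6). In the Off-C PVH the ratio was 0.12 ± 0.87 (SD, n = 6). It was lower in the ARC in 8 of 10 mice, by a mean of 0.78 on the log2 scale (exact sign-flip p = 0.045, adjusted p = 0.20 over 9 ratio tests). The ratio of miR-128-3p to miR-383-5p was lower in the ARC in 9 of 10 mice, with a mean difference of -1.08 (exact p = 0.0059, adjusted p = 0.053), and RC12A had the lowest Off-C ratio at 1.61. miR-153-3p to miR-383-5p was higher in 5 mice and lower in 5 (-0.30, exact p = 0.72). None of the 9 tests passed after adjustment. The maternal groups overlapped in every ratio, with adjusted p-values of 0.42 to 0.58 for the ratios in the ARC and 0.42 to 0.76 in the PVH by exact permutation of 462 splits.

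The covariation of the members across libraries was examined next, since miRNAs of the same cells could be expected to move together. No pair had a positive r past the threshold in the PVH, or in the ARC once F42A and F6A were left out. Over the 9 ARC libraries without F42A and F6A, miR-128-3p and miR-153-3p had a Pearson r of -0.37 (exact permutation p = 0.32, adjusted p = 0.42 over 6 relations) and a Spearman rho of -0.42 (exact p = 0.27). miR-128-3p and miR-383-5p had r = -0.84 (exact p = 0.0043, adjusted p = 0.026) and rho = -0.73 (exact p = 0.031, adjusted p = 0.19), and r was -0.67 without RC12A and RC8A as well. miR-153-3p and miR-383-5p had r = 0.44 (exact p = 0.24, adjusted p = 0.42) and rho = 0.47 (exact p = 0.21). The 6 Off-C libraries alone gave r of -0.45, -0.85 and 0.69 in the same order (exact p = 0.36, 0.040 and 0.13, none past 0.05 after adjustment).

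In the deposited values F42A and F6A changed the sign of both relations with miR-153-3p. With all 11 ARC libraries r was 0.81 between miR-128-3p and miR-153-3p (permutation p = 0.016, adjusted p = 0.041), while rho was 0.23 (permutation p = 0.50). Between miR-153-3p and miR-383-5p r was -0.73 (permutation p = 0.020, adjusted p = 0.041) with rho = -0.20 (permutation p = 0.56). These 2 libraries are also those farthest from the median of the first miRNA of each pair, so the pooled relations of the deposited values rest on them. As deviations from the maternal group mean, r was 0.79 and -0.73 for these pairs, with rho of 0.75 and -0.68. Without F42A and F6A r was 0.43 and -0.35, but the Off-Ob means used there included both libraries. The negative relation of miR-128-3p and miR-383-5p was there with and without F42A and F6A. All 11 libraries gave r = -0.91 (adjusted p = 0.00018, from a permutation p of 3.0e-05), and the rank correlation, rho, was -0.85 with a permutation p of 0.0014.

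In the PVH no relation passed after adjustment. miR-128-3p and miR-153-3p had r = -0.43 (permutation p = 0.19, or 0.28 when adjusted), and their rho was -0.51 (permutation p = 0.12). Without RC8A and F14A, the libraries farthest from the median of miR-128-3p, r was -0.74, and in the 6 Off-C libraries it was -0.80 (exact p = 0.060, adjusted p = 0.18). miR-128-3p and miR-383-5p had r = -0.15 (permutation p = 0.67) and rho = 0.08 (permutation p = 0.82), and r was 0.37 without RC8A and F14A. miR-153-3p and miR-383-5p had r = -0.33 (permutation p = 0.32) and rho = -0.39 (permutation p = 0.24). Without RC5A and RC11A their r was -0.21. The few reads of miR-383-5p limit both of its relations here.

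**Figure D4:**
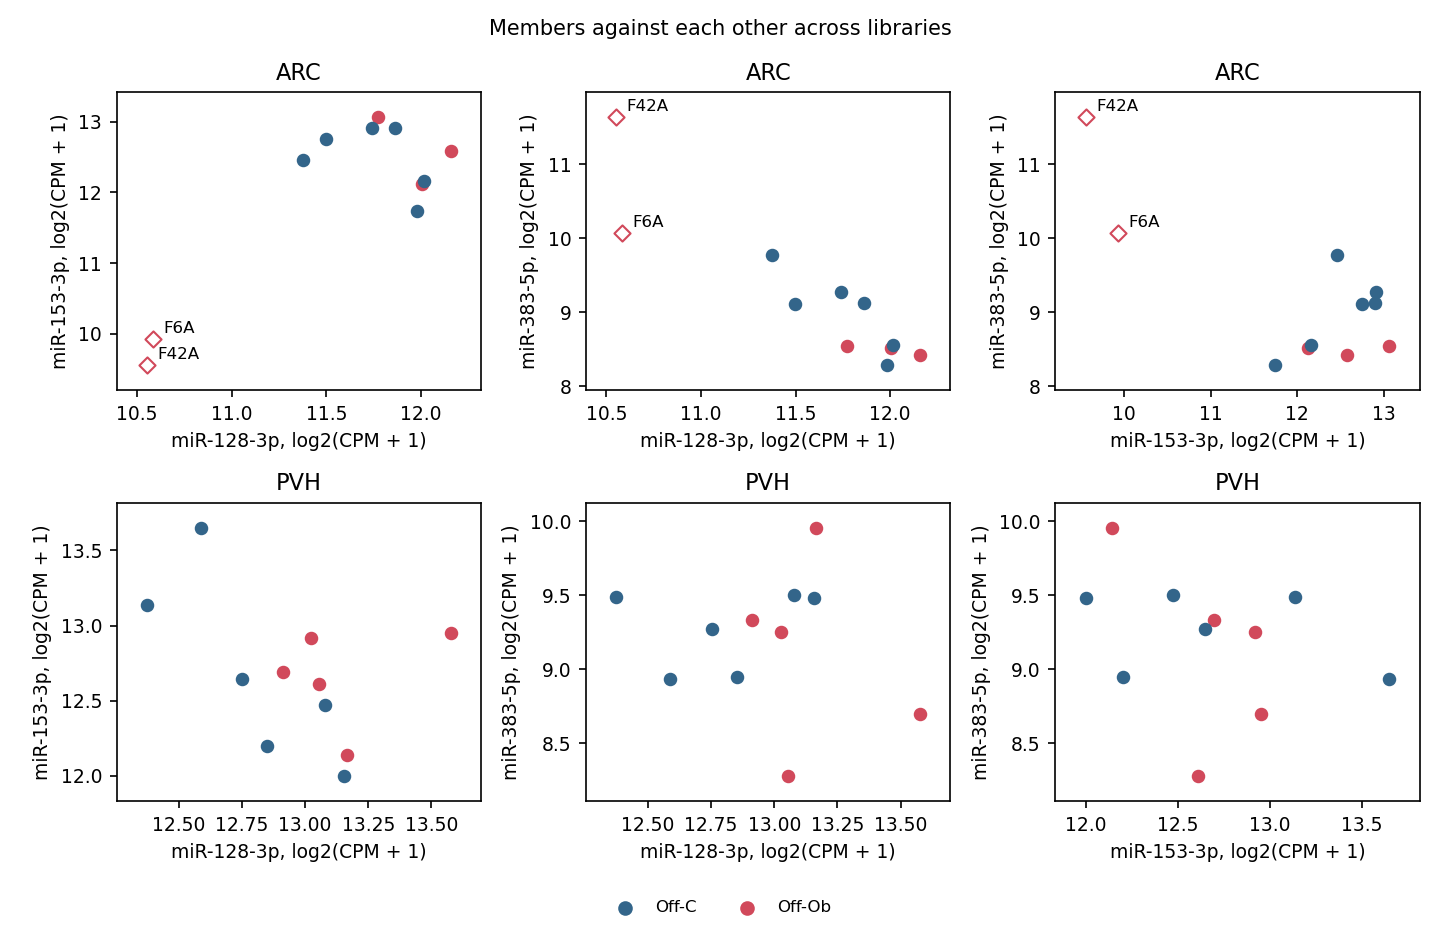
Each pair of members plotted against each other in deposited log2(CPM + 1) (both axes), with the ARC in the upper row and the PVH in the lower. Points are libraries, blue for Off-C and red for Off-Ob, and open diamonds are F42A and F6A. In the upper left panel the 2 diamonds alone give the positive relation, with r = 0.81 over 11 libraries and -0.37 over the other 9.

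miR-128-3p and miR-153-3p also kept different company among the other miRNAs. The 128 miRNAs with a median of at least 10 reads in both nuclei were correlated with each member across the 11 libraries of a nucleus, as a description with no test. The points of each correlation share library depth and scale factor. Over all 8128 pairs the median r was 0.04 for the ARC and -0.01 for the PVH. The median absolute r was 0.51 and 0.37, so large values of either sign were common. The miRNAs most like miR-128-3p, by the mean of r in both nuclei, were miR-134-5p (r = 0.96 in the ARC and 0.87 in the PVH), miR-136-3p (0.91 and 0.88) and miR-29c-3p (0.94 and 0.81). Those most like miR-153-3p were miR-467b-5p (0.97 and 0.88), miR-335-5p (0.92 and 0.93) and miR-135a-5p (0.98 and 0.83), the last a member of the neuron-enriched list. Without F42A and F6A their r in the ARC was 0.83, 0.92 and 0.87 for the first set and 0.76, 0.88 and 0.87 for the second. These libraries are among those by which the miRNAs were picked, so this is not a separate check. miR-153-3p ranked 61 of the 127 others by likeness to miR-128-3p, and miR-383-5p ranked 109.

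The RefSeq sequences of 5 of these 6 miRNAs are shown to compare their seeds, in capitals, with those of the members. miR-467b-5p is named only.
miR-134-5p: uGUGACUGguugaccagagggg
miR-136-3p: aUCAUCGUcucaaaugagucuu
miR-29c-3p: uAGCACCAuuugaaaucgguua
miR-335-5p: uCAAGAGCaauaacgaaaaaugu
miR-135a-5p: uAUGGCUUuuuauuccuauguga
None of these 5 carried the seed of the member it resembled. Mir134 and Mir136 lie at chr12:109734145-109734166 and chr12:109595366-109595387 (mature arms, plus strand). Mir153 is on the same chromosome but apart from them, at chr12:117250817-117250885, and Mir128-1 and Mir128-2 are on other chromosomes.

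For miR-383-5p the most alike were let-7d-5p (0.89 and 0.71), miR-330-3p (0.94 and 0.61) and miR-666-3p (0.83 and 0.64). In the Off-C ARC libraries alone the r of let-7d-5p was 0.03, and it was 0.22 without F42A and F6A. Of the 10 let-7 miRNAs 9 had a positive r with miR-383-5p in the ARC, where the median was 0.93 over 11 libraries, 0.63 without F42A and F6A and 0.85 in Off-C. The exception, let-7i-5p, was at -0.50 over 11 libraries and -0.81 without F42A and F6A. In the PVH the median was -0.17, with 3 of them positive and 7 negative. The SD of miR-383-5p there was 0.46 over 11 libraries, and counting error alone would give 0.32. In the ARC without F42A and F6A the same values were 0.49 and 0.30. The part of counting error in the difference between the nuclei was not tested.

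The let-7 miRNAs also parted miR-128-3p from miR-153-3p. With miR-128-3p their median r was -0.90 in the ARC (-0.69 without F42A and F6A) and -0.57 in the PVH, and the lowest mean of r over both nuclei belonged to let-7f-5p (-0.92 and -0.72). In the 6 Off-C ARC libraries the r of miR-128-3p was -0.997 with let-7b-5p and -0.999 with let-7c-5p, the lowest of the family. The family ran up to 0.87 there with a median of -0.92. Over all pairs of miRNAs in these libraries the median absolute r was 0.47. let-7i-5p was the exception, at 0.56 in the ARC and 0.76 in the PVH. With miR-153-3p the median of the family was 0.74 in the PVH and 0.52 in the ARC without F42A and F6A, where it was -0.80 with them. Since CPM are shares of a library, an abundant family that takes more reads leaves fewer for the others, and the part of this in these values was not tested.

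The signs of r with miR-128-3p and with miR-153-3p were also compared over the other miRNAs, as a description. Such counts follow largely from the r of the pair itself and are not separate support for it. That r did not pass in the PVH or in the 9 ARC libraries. Of the 126 miRNAs other than these 2 members, 100 had r of opposite sign with miR-128-3p and miR-153-3p in the PVH, as did 99 in the 9 ARC libraries without F42A and F6A. With all 11 ARC libraries only 9 had opposite signs and 117 had the same sign. Opposition was not particular to this pair. For miR-128-3p and miR-383-5p, 119 of the 126 others were opposite over 11 ARC libraries, 117 over 9, and 52 in the PVH. For miR-153-3p and miR-383-5p the counts were 114, 24 and 94. The 10 measured miRNAs of the neuron-enriched list in this set were split as well. In the PVH their r with miR-128-3p was positive for 3 and negative for 7, with a median of -0.35, and their r with miR-153-3p was positive for 5 and negative for 5, with a median of 0.13. miR-9-3p stood at -0.50 with miR-128-3p and 0.95 with miR-153-3p there, and miR-129-2-3p at 0.61 and -0.54. With all 11 ARC libraries 8 of the 10 were positive with miR-128-3p and 9 with miR-153-3p, and without F42A and F6A 4 and 7 were. Among the 126 miRNAs, 75 were positive with miR-128-3p and 78 with miR-153-3p over 11 ARC libraries, and 57 and 66 without F42A and F6A. The list took 0.388% of the reads of F42A and 0.703% of those of F6A, against 2.13% to 2.95% in the Off-C ARC. The other lists also took small shares of the reads of F42A. Astrocytes were at 0.269% against 0.720% to 1.28% in the Off-C ARC, and endothelium at 0.384% against 0.665% to 2.18%. Pituitary and neuroendocrine cells were at 6.69% against 15.3% to 22.05%. The leukocyte, oligodendrocyte and ependymal lists were also below their Off-C range in F42A. Let-7 took 79.1% of the reads of F42A, and its part in these shares was not tested. On the joint scale the Off-Ob ARC libraries were at 0.733% to 1.07% for endothelium, inside the Off-C range of 0.641% to 2.27%. The lowest Off-Ob library was at 15.86% for the neuroendocrine list, against 15.88% in Off-C. For the neuron-enriched list the lowest values were 0.919% and 2.37%, and the remaining lists also reached below their Off-C range.

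**Figure D5:**
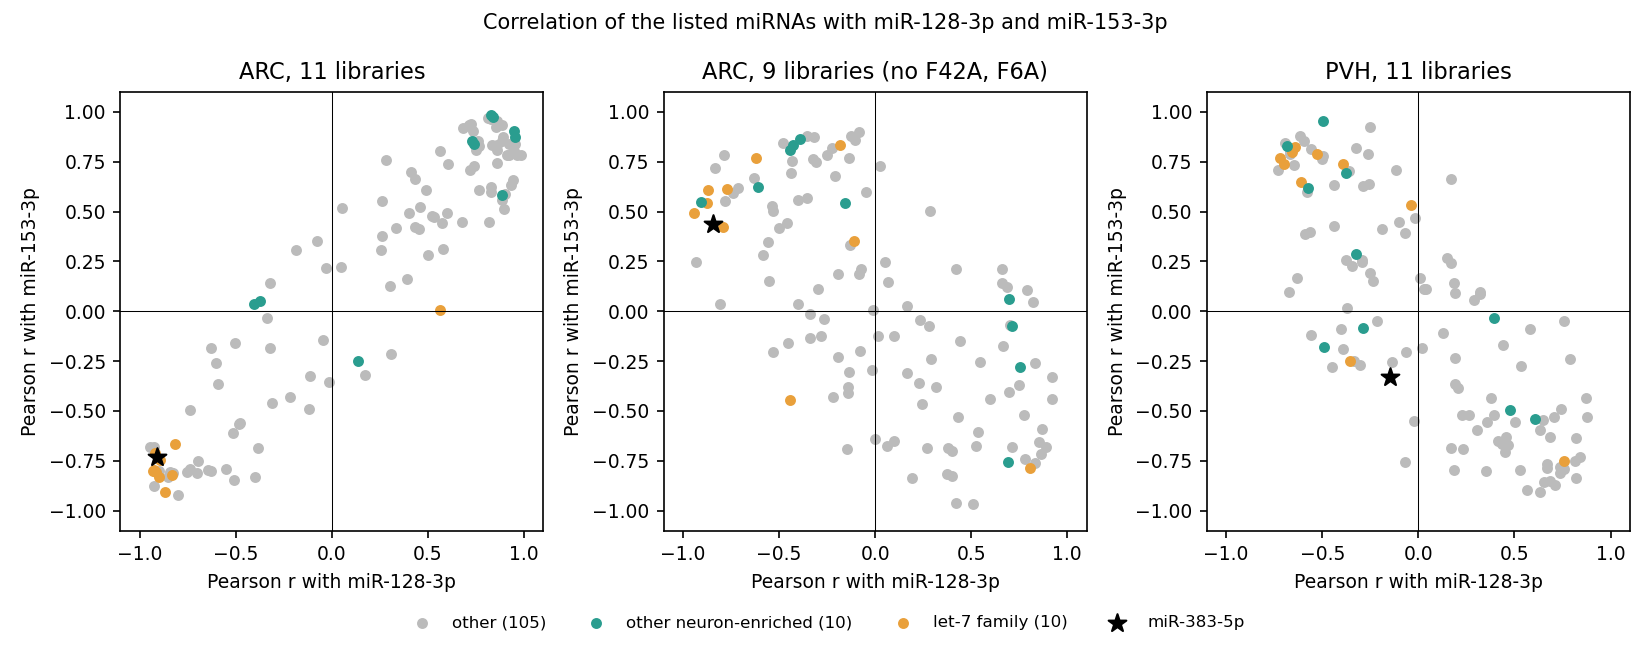
Pearson r of each other miRNA with miR-128-3p (horizontal axes) and with miR-153-3p (vertical axes), for 11 ARC libraries, 9 ARC libraries and 11 PVH libraries. Points are miRNAs, coloured for the neuron-enriched list (10) and the let-7 family (10), and the star is miR-383-5p. The rising cloud of the first panel becomes a falling cloud without F42A and F6A, like that of the PVH. The slope of each cloud follows largely from the r between miR-128-3p and miR-153-3p.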

How the data were processed

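Small RNA of laser-captured ARC and PVH was sequenced after TruSeq Small RNA library preparation. Per the labels and the paper's methods the authors aligned reads with Bowtie 1.2.3 to GRCm38 and used edgeR 3.36.0. The deposited log2 values are log2(CPM + 1), which the authors scaled within each nucleus. The miRNA annotation and the rule for reads that match several miRNAs are not given in the sources used here. Mouse names came from the identifier sheet. Each of the 3784 values gave a whole read count to within 0.01. Means and tests within a nucleus used the deposited values, and comparisons between nuclei used reads scaled together by a trimmed mean of M values. limma 3.58.1 (R 4.3.3) was run with a variance trend after a filter (CPM of 1 or more in 5 libraries) that removed none of the 172 miRNAs, with Benjamini-Hochberg adjustment. The mouse was the block in fits over both nuclei, because libraries of both nuclei came from the same animals (consensus correlation -0.08). Ratios and correlations were tested by two-sided permutation in Python 3.11.15 with numpy 2.4.6, exact for every ratio and for correlations below 10 libraries, and with 100000 draws for the other correlations. The fits were tested on simulated data. The authors' sheets of library totals and scale factors were not used, since both follow from the log2 values. Sequences came from RefSeq and gene models from GENCODE mouse release 21.

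Named miRNAs were the 3 members, those sharing a seed, the 3 most correlated with each, and list members where a result turned on them. Examples beyond these were chosen after their values were seen. The members and lists were chosen with earlier results of these data known. The 8 lists covered other neuron-enriched miRNAs and 7 further sets of cells, of which neuroendocrine cells may be neurons. Alternatives were other pseudocounts, filters, scalings and fits, and libraries left out. Per the paper's methods, 1 male per litter was used, so replicates are separate mice.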

Additional observations from a re-analysis of the deposited data

Results flagged for a closer look

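Among 24 groups of levels and ratios, 1 library stood far from the rest of its group. In the Off-C ARC the log2 ratio of miR-153-3p to miR-383-5p was 2.69 in RC12A, and the gap to the next library took 71.1% of the group's range. About 1 group in 20 would be marked by chance. RC12A held 239 reads of miR-153-3p and 37 of miR-383-5p, the most miR-383-5p reads of any Off-C library.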

How the results depend on the processing

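The count of 34 miRNAs past the threshold between nuclei became 59 on the deposited values as they stand, 9 in Off-C mice, 12 in Off-Ob mice and 11 in a fit of the 12 Off-C libraries. It ran from 12 (without the PVH library of F42A) to 49 when 1 library was left out. Without the mouse as a replicate block it was 38, the difference of miR-128-3p was -1.02 (adjusted p = 0.00053), and the differences of the maternal effect between nuclei were -0.68, -1.02 and 0.59 for miR-128-3p, miR-153-3p and miR-383-5p. Leaving out the block changed no call of a member. miR-128-3p kept its sign in all 35 alternatives and its call in 34, the exception being the Off-C contrast. In the Off-Ob contrast without the ARC libraries of F42A and F6A miR-153-3p was at 0.31 and miR-383-5p at -0.26. The difference of miR-128-3p between maternal groups, ARC minus PVH, was 0.032 without F42A.

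Without F42A and F6A, the maternal differences in the ARC were 0.23, 0.10 and -0.52 for miR-128-3p, miR-153-3p and miR-383-5p, that of miR-153-3p in the PVH was 0.11, and those of the effect between nuclei were 0.13 for miR-153-3p and -0.37 for miR-383-5p. Between nuclei miR-153-3p was at 0.24 without these libraries and at 0.16 in both Off-C fits, and miR-383-5p was at -0.075 without them. Among ratios, miR-128-3p to miR-383-5p was at 0.76 and miR-153-3p to miR-383-5p at 0.62 between maternal groups in the ARC, and the latter at 0.14 between nuclei. With single libraries left out, the maternal difference of miR-383-5p ran from -0.13 to 0.67 in the ARC and from -0.38 to 0.038 in the PVH, and that of miR-153-3p in the PVH from -0.16 to 0.17. The ratio of miR-128-3p to miR-383-5p ran from -1.22 (without RC13A, adjusted p = 0.035 by exact sign-flip test) to -0.72 (without F42A) between nuclei and from -1.19 to 0.015 between maternal groups in the ARC. That of miR-153-3p to miR-383-5p ran from -0.46 to 0.14 between nuclei, from -2.09 to -0.43 between maternal groups in the ARC and from -0.046 to 0.49 in the PVH.

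For the ARC pairs miR-128-3p with miR-153-3p, miR-128-3p with miR-383-5p and miR-153-3p with miR-383-5p, r was -0.45, -0.85 and 0.69 in Off-C libraries, -0.34, -0.84 and 0.57 there with plain CPM, and -0.65, -0.89 and 0.70 with CPM outside let-7. Without F42A and F6A the first and last were -0.37 and 0.44. With single libraries left out they ran from 0.67 to 0.85 and from -0.80 to -0.42, and both missed the adjusted threshold without F13A, F41A, F42A or F6A. For miR-128-3p and miR-383-5p in the PVH, r was 0.11 with plain CPM, 0.25 in Off-C libraries, 0.53 and 0.26 in those with plain CPM and CPM outside let-7, and from -0.33 to 0.12 with single libraries left out. For miR-128-3p and miR-153-3p in the PVH it ran from -0.73 (without F14A, permutation adjusted p = 0.031) to -0.25. The causes were not tested. The fit of the 12 Off-C libraries, the Off-Ob contrast and the maternal difference without F42A or F6A, the single-library ratios and correlations and the Off-C scalings were chosen after seeing the data. Read depth limits miR-383-5p most, with 9 to 44 reads a library.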
